A study of Mus musculus with 6 samples.

Results

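The genes described are 40 mouse genes for soluble hydrolases, their cofactors and membrane proteins of the lysosome, leaving out cathepsins and the proton pump. They were chosen by symbol as rows of the gene table and make up 40 of 45706 genes. All 40 passed the filter on low counts and are among the 12224 genes tested. By role, 8 are membrane proteins, 12 are glycosidases or the amidase Aga, 5 are sulfatases, 5 split lipids or thioesters, 5 are soluble proteins that assist or accompany the enzymes, 2 are peptidases, and 3 are phosphatases or a nuclease.

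Macrophages grown from mouse bone marrow were profiled by mRNA sequencing in 3 groups of 2 libraries each. Untreated cells of day 0 form the first group. The others were sequenced at day 1, after treatment with RANKL, a TNF family cytokine that turns macrophages into osteoclasts, or with RANKL together with sodium acetate, a salt of the acetate that gut bacteria release in fermentation. Strain, age and doses were not given, nor whether the 2 libraries of a group came from separate cultures or animals. A p-value here therefore reflects the spread between these samples alone, and that spread may be technical. The study has no day 1 group without RANKL and no group with another sodium salt, so RANKL cannot be told apart from the day in culture, nor acetate from sodium. In bulk RNA, fewer cells of a type and less RNA per cell cannot be told apart.

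Lysosomes are acidic organelles in which macrophages break down engulfed cells, lipoproteins and glycans. Most soluble hydrolases reach them through mannose 6-phosphate tags read by receptors in the Golgi, while membrane proteins such as Lamp1 and Lamp2 form the inner coat of the limiting membrane. Many lysosomal genes carry a palindromic E-box near their start that MITF, TFEB and TFE3, related helix-loop-helix factors, can bind. Osteoclasts dissolve bone by releasing acid and lysosomal enzymes onto it, and Acp5, the tartrate-resistant acid phosphatase, is the enzyme by which they are stained.

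Promoter windows of 300 bases, 250 before and 50 after the annotated start, were available from RefSeq (GRCm38.p6) for 36 of the 40 genes, in 41 windows. Npc1, Aga, Galns and Asah1 were not among them. TCACGTG, searched on both strands, stood in a window of 9 of the 36 genes (25%): Arsa, Cln3, Gaa, Gla, Glb1, Lamp1, Lgmn, Naglu and Sgsh. Among all 27025 genes with a window the share was 4.29%, and among the 8857 other tested genes it was 7.1%. The core CACGTG alone was in the same 9 genes, against 8.09% of all genes and 11.9% of the other tested genes. TCATGTG, the M-box, stood in windows of 6 genes (16.7%), Acp5, Gla, Grn, Ppt1, Scarb2 and Tpp1. Its share was 4.31% of all genes and 2.63% of the other tested genes. TGANTCA, an AP-1 site, was in 4 genes (11.1%, against 8.97% of all and 6.24% of the other tested genes). GAGGAA, a core bound by PU.1, was in 15 (41.7%, against 31.3% and 30.7%). These are matches of letters, not bound sites.
The 250 bases before the start are shown, 5′ to 3′, for Lamp1 and Gla, which hold the most matches, and for 2 starts of Acp5. Its transcripts are described further on. Inner and outer refer to these 2 starts alone, since another annotated start of Acp5 lies further upstream. Capitals mark TCACGTG or TCATGTG on either strand.
Lamp1, chr8:13158911-13159160, plus strand: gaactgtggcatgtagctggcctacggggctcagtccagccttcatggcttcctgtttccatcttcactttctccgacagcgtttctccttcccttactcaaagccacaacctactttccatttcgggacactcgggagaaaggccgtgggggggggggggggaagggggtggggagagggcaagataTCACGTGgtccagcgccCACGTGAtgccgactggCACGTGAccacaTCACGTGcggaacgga
Gla, chrX:134601006-134601255, minus strand: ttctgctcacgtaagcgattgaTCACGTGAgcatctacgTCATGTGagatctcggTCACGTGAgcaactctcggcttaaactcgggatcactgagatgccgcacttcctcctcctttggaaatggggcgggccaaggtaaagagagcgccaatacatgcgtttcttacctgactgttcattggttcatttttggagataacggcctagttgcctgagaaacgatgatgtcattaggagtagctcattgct
Acp5, inner start, chr9:22130599-22130848, minus strand: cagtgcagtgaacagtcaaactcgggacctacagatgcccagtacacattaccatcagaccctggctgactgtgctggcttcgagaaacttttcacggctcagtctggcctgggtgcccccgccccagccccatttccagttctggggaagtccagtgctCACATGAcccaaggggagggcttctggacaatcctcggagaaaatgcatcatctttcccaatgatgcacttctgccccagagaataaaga
Acp5, outer start, chr9:22131866-22132115, minus strand: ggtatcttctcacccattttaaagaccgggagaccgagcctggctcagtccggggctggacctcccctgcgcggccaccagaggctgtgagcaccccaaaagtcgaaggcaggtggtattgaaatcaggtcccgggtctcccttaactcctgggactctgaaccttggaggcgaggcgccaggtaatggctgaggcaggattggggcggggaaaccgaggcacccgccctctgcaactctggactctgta
Lamp1 holds 4 copies of the extended E-box, at 61, 45, 28 and 15 bases before its start. Gla holds 2, at 227 and 194 bases before the start, with an M-box between them at 211. These distances are from RefSeq starts, and the GENCODE annotation used below for gene coordinates can differ. Its Gla gene reaches base 134601125, inside the stretch printed above. The windows of Lgmn and Cln3 lie wholly inside the GENCODE genes. The inner Acp5 start has an M-box 90 bases before it, and the outer one has neither motif. The window of the Acp5 start further upstream also has neither.

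Library totals ran from 9997527 to 11254961 expected counts, which are RSEM's estimates of the reads of each gene. Levels are given as CPM, counts divided by the TMM-scaled library size, and for comparing genes with each other as TPM, which also divides by transcript length. Between the 2 libraries of any group, no gene of the 40 differed by a ratio above 1.34, the value of Aga with acetate. The 6 macrophage markers Adgre1, Csf1r, Itgam, Cd68, Fcgr1 and Mertk summed to between 5090 and 5220 CPM at day 0, 1740 and 1760 with RANKL, and 2300 and 2370 with acetate. The 6 osteoclast precursor markers, of which Acp5 is 1, summed to between 68.9 and 72.6, 2910 and 2920, and 754 and 805 CPM in the same order. Marker lists of B, T and NK, mast, erythroid and dendritic cells summed to at most 2.51 CPM in any library, with Cd3e, Cd3g, Ms4a2, Mcpt4, Tpsb2 and Hbb-bs at 0 in all 6. The endothelial list summed to between 24.5 and 24.9 CPM at day 0, 7.54 and 11 with RANKL, and 18.7 and 24 with acetate, the order seen for many of the 40 genes. The megakaryocyte list summed to between 332 and 350 CPM, 65.2 and 72.6, and 75.3 and 78.9, and the neutrophil list to between 134 and 140, 108 and 109, and 112 and 115. Stromal and osteoblast markers, with Bglap at 0, were lowest at day 0, between 5.76 and 6.24 CPM, and reached 15.3 to 15.9 with RANKL and 11.1 to 12.1 with acetate. The part of these marker differences in the results was not tested.

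After 1 day of RANKL, 34 of the 40 genes were lower than at day 0 and 4 were higher. Calls used edgeR's quasi-likelihood test at 0.05 after Benjamini-Hochberg adjustment across the 12224 genes tested. Among all tested genes 33.5% were lowered and 32.8% raised. The drop was at least 2-fold for 18 of the 40, against 13.3% of all genes, and the rise for 1, against 8.43%. The raised genes were Acp5, by far the steepest, and by small amounts Ids, Cd63 and Npc2, while Arsa and Dnase2a were not called. The median log2 fold change was -0.98, against 0.01 over all tested genes. Libraries of the groups did not overlap for 39 of the 40, all but Arsa, against 81.4% of all genes. On the log2(TPM + 0.1) scale tested with limma, the calls of Cln3, Gm2a and Ids were lost (adjusted p = 0.557, 0.0777 and 0.131). As a share of all counts, the 40 genes took 1.81% in both day 0 libraries, 0.961% and 0.979% with RANKL, and 1.07% in both acetate libraries.

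**Figure D1:**
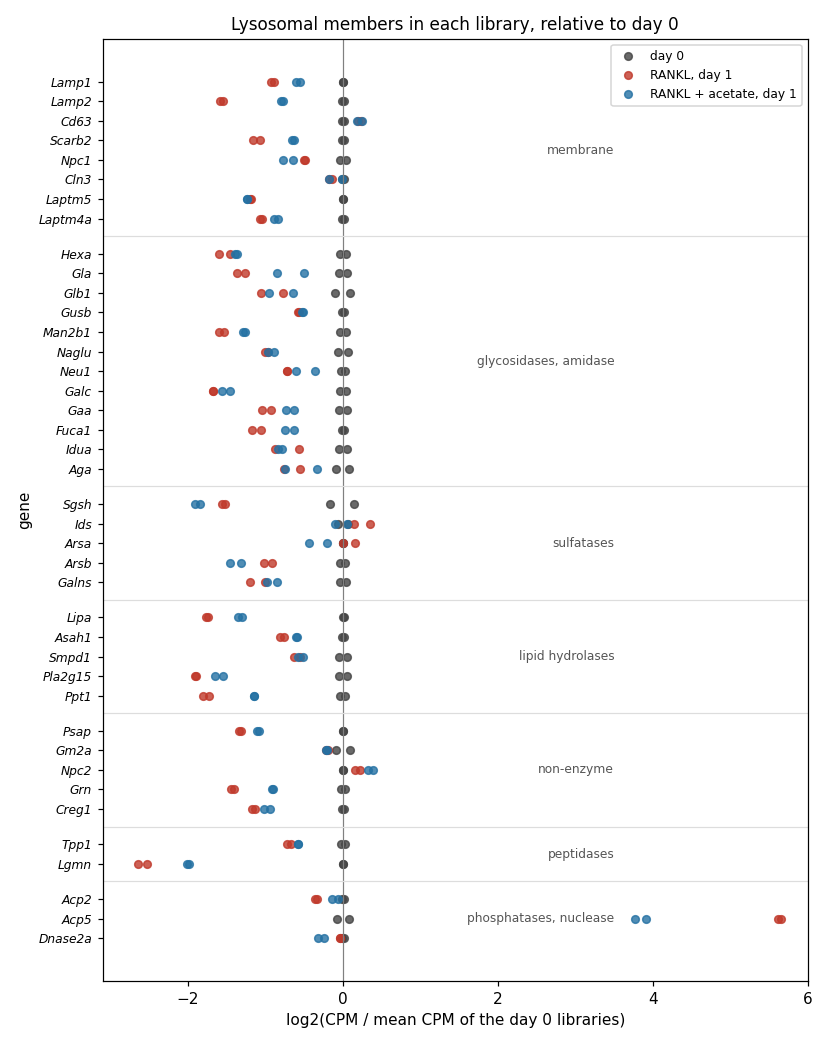
Level of each of the 40 genes in each library, as log2 of its CPM over the mean of the day 0 libraries, with genes grouped by role. Red points (RANKL) lie left of 0 for most genes, and Acp5 lies far to the right in the RANKL libraries and nearer to 0 with acetate (blue).

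With acetate added to RANKL, 21 of the 40 genes were higher than with RANKL alone and 6 were lower, and 13 were not called. Over all tested genes 16.7% were raised and 13.7% lowered in this comparison. The lowered genes were Acp5, Npc1, Dnase2a and the sulfatases Ids, Arsa and Arsb. The differences were smaller than those with RANKL: the median was 0.17, against 0 for all genes, and Acp5 alone passed 2-fold, against 1.5% of all genes lowered and 3.7% raised by that much. Libraries did not overlap for 33 of the 40, against 62.9% of all genes, and those that did were Cd63, Cln3, Glb1, Idua, Aga, Smpd1 and Gm2a. On the log2(TPM + 0.1) scale, 10 were raised and 3 lowered: the calls of Acp2, Arsa, Asah1, Creg1, Gaa, Gla, Hexa, Ids, Laptm4a, Neu1, Npc1, Npc2, Pla2g15 and Tpp1 were lost there, with adjusted p between 0.0509 and 0.509. With DESeq2 the calls of Ids, Pla2g15 and Tpp1 were lost (adjusted p = 0.0545, 0.066 and 0.122). Without acetate replicate 2, the count of lowered genes was 3.

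Set against day 0, the acetate libraries had 34 of the 40 genes lower and 3 higher (Acp5, Cd63 and Npc2), while Acp2, Cln3 and Ids were not called. Of all tested genes 30.4% were lowered and 30.3% raised. The drop was at least 2-fold for 11 genes, against 9.26% of all genes, and the rise for 1, against 7.35%. The median was -0.70, against 0. Libraries did not overlap for 38 of the 40, all but Cln3 and Ids, against 78.6% of all genes. With log2(FPKM + 0.1), the calls of Arsa, Gla and Gm2a were lost (adjusted p = 0.115, 0.0542 and 0.231), and that of Gm2a also without day 0 replicate 1 (0.179). This comparison shares its libraries with the other two, so their values are set side by side and are not independent results.

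**Figure D2:**
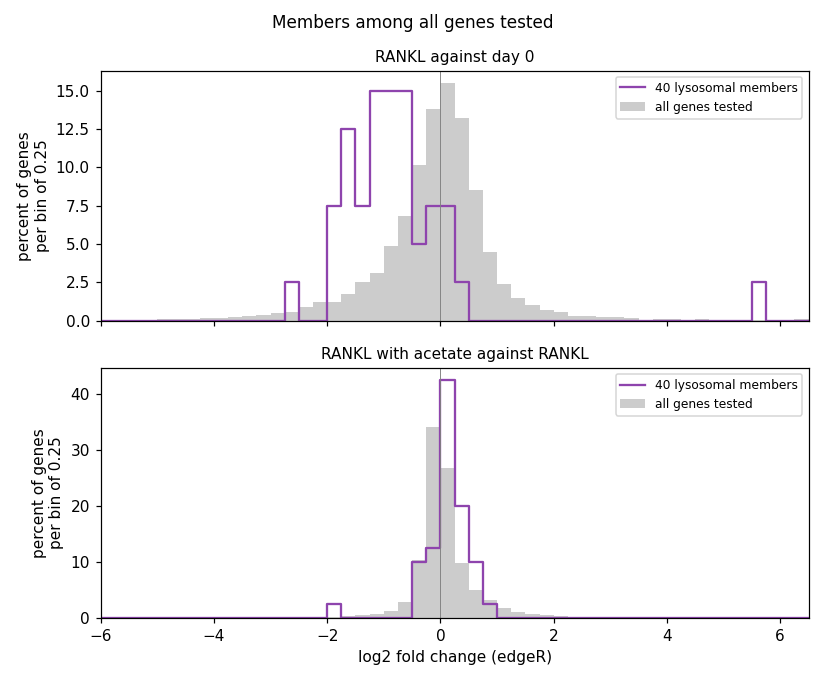
Distribution of log2 fold changes (x axis) in bins of 0.25, as a percent of the 40 genes (purple line) and of all 12224 genes tested (grey bars), for RANKL against day 0 (top) and RANKL with acetate against RANKL (bottom). The 40 genes sit to the left of the bulk in the top panel, with a median of -0.98, and slightly to its right in the bottom panel, with a median of 0.17.

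Of the 8 membrane proteins, 7 fell with RANKL and Cd63 rose, against 33.5% and 32.8% of all tested genes. Lamp2 (chrX:38401357-38456454 on GRCm38) has isoforms that line the membrane. It had 570.5 and 565 CPM at day 0, 194 and 189 with RANKL and 326 and 331 with acetate. It was 2.96-fold lower with RANKL (log2 fold change -1.57 ± 0.04, SE; adjusted p = 4.91e-27) and then 1.71-fold higher with acetate (0.78 ± 0.04; adjusted p = 4.38e-17). The acetate libraries lay between the other groups without overlap, and 7.5% of all tested genes had a higher log2 fold change with acetate. Lamp1 (chr8:13159161-13175338), its close relative and the most abundant membrane protein of the set per length at day 0 (1043 ± 7.9 TPM, SD, n = 2), went from 1516 and 1518 CPM to 795 and 816 and to 1029 and 997 with acetate. Its log2 fold changes were -0.91 ± 0.03 with RANKL and 0.33 ± 0.03 with acetate (adjusted p = 4.36e-23 and 2.71e-10). Scarb2, the receptor that carries glucocerebrosidase to the lysosome, followed the same order, with 138 and 134 CPM at day 0, 64.7 and 61.2 with RANKL and 88 and 86.4 with acetate.

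Cd63, a tetraspanin of late endosomes and lysosomes, had 299 and 304 CPM at day 0, 344 and 354 with RANKL and 343 and 356 with acetate. Both day 1 groups lay above day 0 (0.21 ± 0.04 and 0.21 ± 0.04; adjusted p = 2.33e-05 and 2.75e-05) and overlapped each other, with a difference of 0.00 ± 0.04. It is the only gene of the 40 whose counts were not whole numbers in every library, so its level is an estimate by RSEM. Laptm5, a membrane protein of blood cell lysosomes, fell from 861 and 863 to 374 and 377 CPM with RANKL and stood at 364 and 365 with acetate (-0.04 ± 0.04; adjusted p = 0.408). Laptm4a, from the same family, went from 277 and 284 to 136 and 134 and rose to 152 and 158 with acetate, a small change of 0.20 ± 0.05. Npc1, which exports sterol from the lysosome, was lower again with acetate: 276 and 289 CPM at day 0, 201 and 199 with RANKL and 180.3 and 165 with both. The acetate difference of -0.21 ± 0.05 (adjusted p = 0.000728) was not called without acetate replicate 2 (adjusted p = 0.06). Cln3, mutated in a childhood neuronal storage disease, was close to its day 0 level in all groups (-0.16 ± 0.07 with RANKL), and its call was lost without any 1 of the 4 libraries, with adjusted p between 0.0745 and 0.169, and also with DESeq2 (0.15), with upper-quartile factors (0.225) and with no filter on low counts (0.056).

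Lamp2 has several annotated transcripts, and by RSEM's division of the counts Lamp2-202 took 66.6% and 67.5% at day 0, 67.3% and 65.9% with RANKL, and 71.4% and 71.3% with acetate. Lamp2-201 took 32.4% and 31.3%, 31.4% and 32.9%, and 27.8% and 27.9%. The acetate libraries thus stood apart from the other 4 by a few points. These shares are estimates and were not tested.

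All 12 genes of glycosidases and the amidase fell with RANKL, with a median of -0.99, and 6 of the 12 rose with acetate. Of all tested genes 33.5% fell with RANKL and 16.7% rose with acetate. The steepest drops were those of Galc, which splits galactosylceramide of myelin (-1.68 ± 0.08), Man2b1, the lysosomal alpha-mannosidase (-1.57 ± 0.04), and Hexa, the alpha subunit of the enzyme that splits gangliosides (-1.53 ± 0.04). Hexa had 667 and 629.8 CPM at day 0, 214 and 235 with RANKL and 247 and 251 with acetate. Man2b1 had 476 and 449 CPM at day 0, 152 and 159 with RANKL and 189.9 and 193 with acetate. In both genes the acetate libraries lay just above those with RANKL and far below day 0. The acetate difference was 0.30 ± 0.05 for Man2b1 (adjusted p = 3.60e-06), and 0.15 ± 0.05 for Hexa (adjusted p = 0.0116), a call lost without RANKL replicate 1 or acetate replicate 2 (adjusted p = 0.281 and 0.107).

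Gla (chrX:134588149-134601125), the galactosidase that clears globotriaosylceramide, had the largest acetate difference of this group, at 0.64 ± 0.09 (adjusted p = 4.00e-07). Its libraries held 102 and 94.7 CPM at day 0, 41 and 38.3 with RANKL and 69.2 and 54.7 with acetate. The 2 acetate libraries differed from each other more than those of either other group, and on the TPM and FPKM scales the call was lost (adjusted p between 0.0611 and 0.0625). Fuca1, which removes fucose, had -1.11 ± 0.06 with RANKL and then 0.42 ± 0.07 with acetate, and Gaa, the acid glucosidase of glycogen, had -0.99 ± 0.06 and 0.31 ± 0.07. Neu1, the sialidase, had 149 and 145 CPM at day 0, 88.9 and 89.4 with RANKL and 96.5 and 115 with acetate. Its acetate difference of 0.24 ± 0.06 was not called without acetate replicate 2 (0.11, adjusted p = 0.288) or without RANKL replicate 1 (adjusted p = 0.0539).

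Gusb, the glucuronidase, was the most abundant glycosidase with RANKL (347 ± 1.24 TPM, SD, n = 2) and had the smallest estimated drop of the 12, from 846 and 857 CPM to 569 and 577, or -0.57 ± 0.03. With acetate it stood at 590.1 and 594, a difference of 0.05 ± 0.03 that was not called (adjusted p = 0.321). The other genes not called with acetate had differences from -0.10 to 0.16. They are Galc, Glb1, the acid galactosidase, Naglu and Idua, which trim heparan sulfate, and Aga, the amidase that frees asparagine from glycans. With RANKL these 5 had log2 fold changes of -1.68, -0.91, -0.99, -0.71 and -0.65.

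Of the 5 sulfatases, 3 were lowered and 1 raised with RANKL, against 33.5% and 32.8% of all tested genes. With acetate none was raised and 3 were lowered, against 16.7% and 13.7%. Arsb, which removes sulfate from dermatan sulfate, had 95 and 91 CPM at day 0, 45.8 and 49.1 with RANKL and 37.2 and 33.9 with acetate. Its 3 groups were in descending order without overlap, with -0.97 ± 0.07 for RANKL and -0.42 ± 0.08 for acetate (adjusted p = 6.79e-14 and 0.000164). Sgsh, which acts on heparan sulfate, had 51.1 and 41.1 CPM at day 0, 16 and 15.6 with RANKL and 12.9 and 12.3 with acetate. Its acetate libraries were the lowest, but the difference of -0.33 ± 0.14 was not called (adjusted p = 0.079). Ids, the iduronate sulfatase, had 62.7 and 57.2 CPM at day 0, 76.5 and 66.3 with RANKL and 62.4 and 55.7 with acetate. The RANKL group alone lay higher (0.25 ± 0.08; adjusted p = 0.00535), and the acetate and day 0 libraries overlapped (-0.02 ± 0.08). Without RANKL replicate 1 neither the rise nor the acetate difference was called (adjusted p = 0.198 and 0.228), and the rise was also lost without day 0 replicate 2 (0.0769) and the acetate difference without acetate replicate 2 (0.15).

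Arsa, which removes sulfate from the sulfatide of myelin, had 42.6 and 42.8 CPM at day 0, 47.4 and 42.8 with RANKL and 37 and 31.6 with acetate. The day 0 and RANKL groups overlapped (0.08 ± 0.09; adjusted p = 0.446) and the acetate libraries lay below both. The acetate difference from RANKL was -0.39 ± 0.09 (adjusted p = 0.00106), not called without RANKL replicate 1 or acetate replicate 2 (adjusted p = 0.0525 and 0.06), and that from day 0 was not called without acetate replicate 2 (0.127). Galns, which acts on keratan sulfate, was lower with RANKL (-1.10 ± 0.08). Its acetate difference of 0.19 ± 0.09 was not called (adjusted p = 0.0986). Exons of another gene overlap 32.3% of the exonic bases of Arsb, 21.6% of Sgsh and 18.8% of Arsa, all on the opposite strand, and no source used here says whether counting used strand. Reads of such neighbours (Gm26527, Card14 and C230037L18Rik) could therefore not be told apart there. Per length the sulfatases were the least abundant role: their summed level was 140 and 137 TPM at day 0, 90.3 and 87.7 with RANKL, and 81.4 and 73.7 with acetate.

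All 5 lipid hydrolases fell with RANKL, with a median of -1.76, and 4 rose with acetate. The shares of all tested genes were 33.5% lowered with RANKL and 16.7% raised with acetate. Lipa (chr19:34492318-34527474), the acid lipase that frees cholesterol from the esters of engulfed lipoproteins, had 1247 and 1258 CPM at day 0, 368 and 374 with RANKL and 488 and 507 with acetate. It was 3.38-fold lower with RANKL (adjusted p = 6.63e-30) and 1.34-fold higher once acetate was added (adjusted p = 1.25e-11), which left it 2.52-fold below day 0. Ppt1, which removes palmitate from proteins, had 205 and 214 CPM at day 0, 59.9 and 63.1 with RANKL and 94.8 and 94.6 with acetate. Its changes were -1.77 ± 0.06 and 0.62 ± 0.06 (adjusted p = 2.58e-24 and 3.50e-10), with 3 separate groups. Pla2g15, the lysosomal phospholipase, had the largest drop of the 5, from 94.2 and 101 to 25.9 and 26.2 CPM (-1.90 ± 0.08). With acetate it stood at 33.4 and 31.1, and that difference (0.31 ± 0.09; adjusted p = 0.0108) was not called without RANKL replicate 1, RANKL replicate 2 or acetate replicate 1, with adjusted p between 0.0551 and 0.119. Asah1, the acid ceramidase, had -0.79 ± 0.04 and 0.19 ± 0.04, and Smpd1, the acid sphingomyelinase, -0.59 ± 0.10 and 0.05 ± 0.10, the last not called (adjusted p = 0.773).

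Among the 5 soluble proteins that assist or accompany the enzymes, 4 fell with RANKL and 4 rose with acetate. The shares of all tested genes that did so were 33.5% and 16.7%. Psap (chr10:60277627-60302597), the precursor of the saposins that present sphingolipids to hydrolases, was the most abundant of all 40 genes in every group, at 2547 ± 12.7 TPM at day 0, 1015 ± 3.56 with RANKL and 1177 ± 16.1 with acetate (SD, n = 2). Its libraries held 4433 and 4421 CPM at day 0, 1753 and 1773 with RANKL and 2047 and 2094 with acetate, again with acetate between the other groups. The changes were -1.33 ± 0.03 and 0.23 ± 0.03 (adjusted p = 3.11e-30 and 7.92e-09). Grn, the precursor of the granulins, had 2160 and 2086 CPM at day 0, 783 and 803 with RANKL and 1137 and 1124 with acetate. It was 2.68-fold lower with RANKL and 1.43-fold higher with acetate than without (adjusted p = 6.24e-29 and 2.21e-15), and no group overlapped another.

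Npc2, the soluble carrier that hands sterol to Npc1, rose in both steps, from 723 and 726 CPM at day 0 to 805 and 844 with RANKL and 902 and 949 with acetate. The steps were 0.19 ± 0.04 and 0.17 ± 0.03 (adjusted p = 2.11e-05 and 0.000288), while its partner Npc1 was lowered in both. Gm2a, which presents ganglioside to the hexosaminidase, fell by a little with RANKL (-0.21 ± 0.06; adjusted p = 0.00447), a call lost without day 0 replicate 1 (adjusted p = 0.216), and stood at -0.01 ± 0.06 with acetate. Creg1, a secreted glycoprotein of lysosomes, had 428 and 422 CPM at day 0, 189 and 194 with RANKL and 222 and 209 with acetate. The acetate difference of 0.17 ± 0.04 (adjusted p = 0.00291) was not called without acetate replicate 1 (adjusted p = 0.101), and turned to -0.08 on the TPM scale and -0.10 on the FPKM scale.

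**Figure D3:**
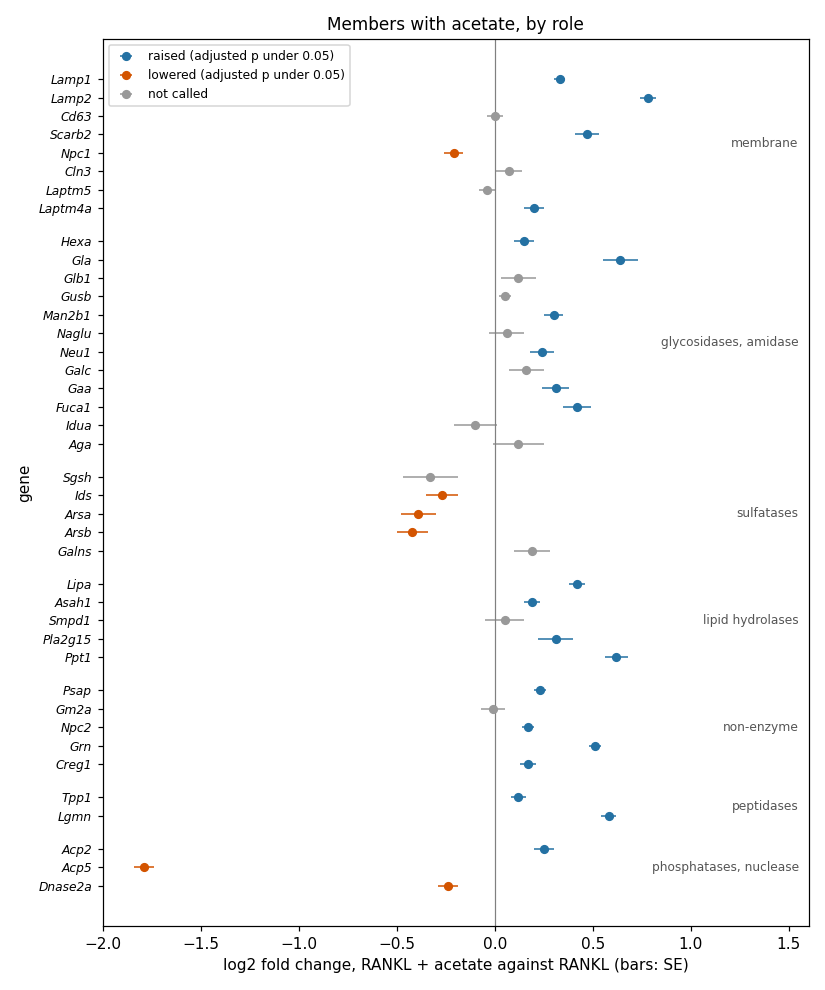
Log2 fold change of each gene in RANKL with acetate against RANKL alone (x axis), with bars for the standard error of the fit and genes grouped by role. Points raised (blue) stand in every role but the sulfatases, where 3 of 5 are lowered (orange), and Acp5 lies far to the left at -1.79.

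Lgmn (chr12:102394084-102439813), the asparaginyl endopeptidase legumain that cuts antigens and matures other lysosomal proteases, had the largest drop of the 40 genes. It had 1412 and 1420 CPM at day 0, 226 and 245 with RANKL and 356 and 349.7 with acetate. It was 6.01-fold lower with RANKL (-2.59 ± 0.04; adjusted p = 1.50e-33), and 2.78% of all tested genes had a lower log2 fold change. With acetate it was 1.5-fold above RANKL alone (adjusted p = 4.67e-14) and 4.01-fold below day 0. Tpp1, the tripeptidyl peptidase, went from 369 and 353 to 218 and 226 CPM (-0.70 ± 0.04) and to 242 and 241 with acetate. That last step of 0.12 ± 0.04 (adjusted p = 0.0304) was not called without RANKL replicate 1 or either acetate library, with adjusted p between 0.104 and 0.193, nor with upper-quartile factors (0.0616).

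Acp5 (chr9:22126727-22135711), the acid phosphatase of osteoclasts, changed more than any other of the 40 genes in both steps. It had 10.1 and 11.3 CPM at day 0, 526 and 536 with RANKL and 162 and 145 with acetate. The increase with RANKL was 49.6-fold (5.63 ± 0.07; adjusted p = 4.77e-36), and with acetate it was 3.46-fold lower than with RANKL alone (-1.79 ± 0.05; adjusted p = 1.16e-25) and still 14.3-fold above day 0. In TPM it stood at the low end of the 40 genes at day 0, at 12.8 ± 1.15 beside 15.5 ± 2.26 for Sgsh, and behind only Psap and Cd63 with RANKL, at 663 ± 1.56 (SD, n = 2). Acp2, the lysosomal acid phosphatase of most cells, had 150.5 and 148 CPM at day 0, 118 and 116 with RANKL and 143 and 136 with acetate. It moved the other way in both steps, with -0.35 ± 0.05 and 0.25 ± 0.05 (adjusted p = 3.75e-07 and 0.000249). Dnase2a, the acid nuclease that degrades DNA of engulfed cells, had 140.2 and 137 CPM at day 0, 135 and 135 with RANKL and 117 and 111 with acetate, and the acetate libraries alone lay lower (-0.24 ± 0.05; adjusted p = 0.000588). The neighbour Mast1 covers 30% of the exonic bases of Dnase2a, and Ddb2 12.6% of those of Acp2, on the opposite strand, and 6530413G14Rik covers 6.75% of Acp5 likewise.

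Acp5 has 3 annotated protein-coding transcripts that differ in their first exon, Acp5-201 starting at base 22131815 of chr9, Acp5-202 at 22130598 and Acp5-203 at 22135711, all on the minus strand. RSEM gave Acp5-201 102 and 90.4 counts at day 0, 408 and 477 with RANKL, and 157 and 192 with acetate. Acp5-202 had 0 and 13.7 counts at day 0, 5730 and 5500 with RANKL, and 1509 and 1297 with acetate. Day 0 counts thus lay mostly on Acp5-201 and day 1 counts on Acp5-202. Acp5-202 took 0% and 12.7% of Acp5 counts at day 0, 93.4% and 92% with RANKL, and 90.6% and 87.1% with acetate. Both transcripts were higher with RANKL than at day 0, and both were lower with acetate than with RANKL alone. Only 79 bases of Acp5-201 and 76 of Acp5-202 are in no other transcript of the gene, and the split rests on reads touching them, so these values are a description with no test. The inner start printed above lies at the first base of Acp5-202, and the outer printed stretch lies just before that of Acp5-201.

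**Figure D4:**
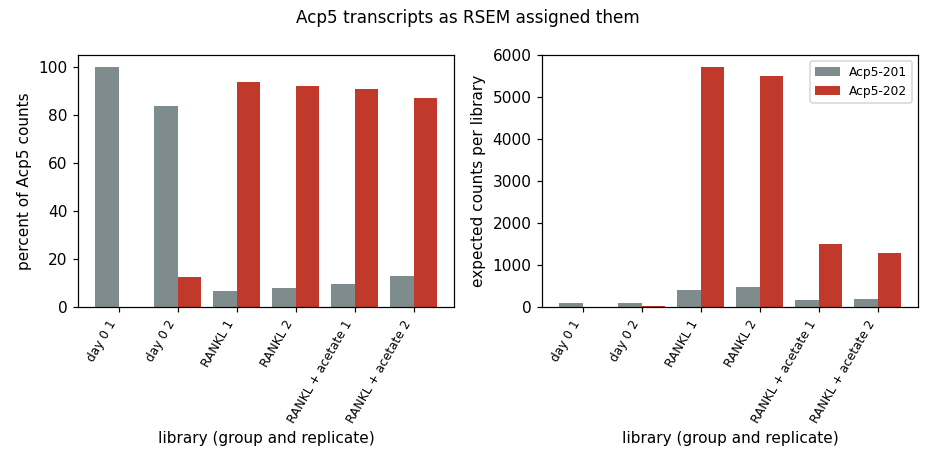
Share of Acp5 counts (left, percent) and expected counts (right) that RSEM assigned to Acp5-201 (grey) and Acp5-202 (red) in each library. The grey bars hold 100% and 83.7% at day 0, and the red bars hold 87.1% to 93.4% in the day 1 libraries.

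A further list held 42 genes of the lysosome and of its biogenesis, tagging and sorting, none of them among the 40. All passed the filter. With RANKL 29 were lowered and 6 raised (median -0.68), against 33.5% and 32.8% of all tested genes. With acetate against RANKL 8 were raised and 9 lowered (19% and 21.4%, median 0.02), against 16.7% and 13.7% of all tested genes. These pooled shares mix roles that differed. Raised and lowered were 3 and 1 of 11 other soluble hydrolases, and 0 and 3 of 12 membrane transporters and channels. They were 4 and 0 of 10 genes of membrane, biogenesis and tethering, and 1 and 5 of 9 genes of tagging and sorting. With acetate against day 0, 32 were lowered and 3 raised (median -0.65), against 30.4% and 30.3%. The lowest with RANKL were Sort1, a sorting receptor, at -2.88 ± 0.09, Hgsnat, the membrane acetyltransferase of heparan sulfate breakdown, at -2.87 ± 0.04, and Arsg, a sulfatase with few counts, at -2.27 ± 0.47. Hgsnat had 675 and 690.0 CPM at day 0, 91.3 and 94.8 with RANKL and 166 and 169 with acetate, and Sort1 had 94.4 and 96.8 CPM at day 0, 13.7 and 12.2 with RANKL and 24.2 and 27 with acetate. These were also raised most with acetate, at 0.85 ± 0.05 and 0.98 ± 0.11. Lowest with acetate were Slc29a3, a nucleoside transporter, at -0.76 ± 0.08, Mfsd8, a membrane transporter family protein, at -0.49 ± 0.17, and Hyal2, a hyaluronidase, at -0.39 ± 0.09. Against day 0, Litaf, a protein of the late endosome membrane, stood beside Hgsnat and Sort1 at the low end with acetate (-1.98, -2.03 and -1.90).

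The genes highest with RANKL were those of sorting. Igf2r, the large mannose 6-phosphate receptor, had 288 and 288 CPM at day 0, 687 and 677 with RANKL and 608 and 603 with acetate. M6pr, the small one, had 442 and 436 CPM at day 0, 959 and 937 with RANKL and 836 and 813 with acetate. Both receptors rose more than 2-fold with RANKL (1.25 ± 0.04 and 1.11 ± 0.04; adjusted p = 4.72e-25 and 2.15e-24), and fell slightly with acetate (-0.17 ± 0.04 and -0.20 ± 0.03; adjusted p = 0.000267 and 1.43e-05). Gga2, an adaptor that loads the receptors into vesicles, rose by 0.67 ± 0.06 with RANKL. Of the 9 genes of tagging and sorting, 4 were raised and 3 lowered with RANKL, against 32.8% and 33.5% of all tested genes, so the counts with RANKL say nothing particular of this group. With acetate Sort1 was raised and 5 were lowered, against 16.7% and 13.7%.

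**Figure D5:**
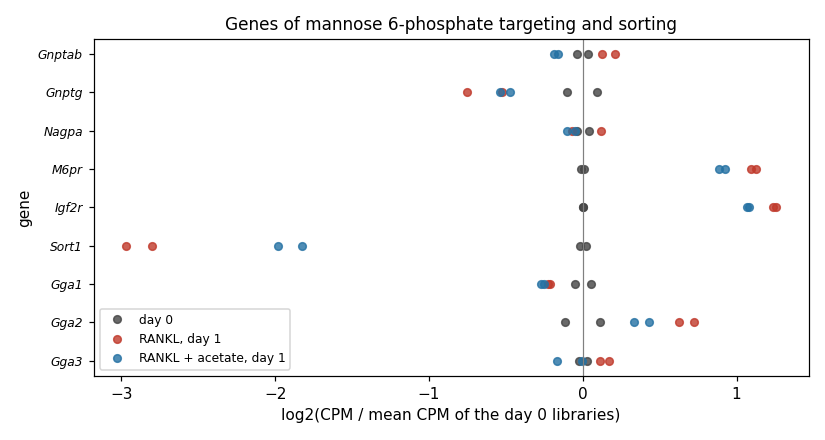
Level of 9 genes of mannose 6-phosphate tagging and sorting in each library, as log2 of CPM over the mean of the day 0 libraries. M6pr and Igf2r lie more than 1 unit to the right with RANKL (red), Sort1 lies far to the left, and acetate libraries (blue) lie closer to day 0 for all 3.

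Of the 3 factors that bind the E-box of lysosomal genes, Mitf rose and the others fell with RANKL. Mitf had 47.3 and 45.2 CPM at day 0, 117 and 117 with RANKL and 68.2 and 67.6 with acetate, with changes of 1.34 ± 0.07 and -0.79 ± 0.06 (adjusted p = 9.79e-19 and 2.07e-12). Tfe3 had 132 and 127 CPM at day 0, 76.7 and 81.1 with RANKL and 87.3 and 88.1 with acetate (-0.71 ± 0.06 with RANKL and 0.15 ± 0.06 with acetate, the latter at an adjusted p of 0.0558), and Tfeb 17.8 and 20.3 CPM at day 0, 14.5 and 11.8 with RANKL and 14.1 and 12.5 with acetate (-0.54 ± 0.15 and 0.02 ± 0.15, the latter at 0.957). Among the 9 genes whose promoter window holds TCACGTG, 8 were lowered and none raised with RANKL, at a median of -0.99. Among the 27 whose window does not, 22 were lowered and 4 raised, with a median of -1.05. Of all tested genes 33.5% were lowered and 32.8% raised. With acetate the medians were 0.12 and 0.17, and 4 of 9 and 16 of 27 were raised, against 16.7% of all tested genes. Lowered were 1 of 9 and 4 of 27, against 13.7%. Lamp1, with 4 copies of the motif, and Gla, with 2, both fell with RANKL and rose with acetate. Lamp2 and Ppt1, whose windows hold no TCACGTG, did likewise, though the window of Ppt1 holds an M-box. Acp5, Grn, Scarb2 and Tpp1, also among the 27, hold an M-box too. The part of these motifs in the differences was not tested.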

How the data were processed

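RNA-seq libraries were grouped by sample title, and the title ending in 1 is called replicate 1. The labels' protocols name a miRNeasy kit, DNase and a SMARTer kit. The submitters' processing notes list Trimmomatic 0.39, STAR (version not given in the sources used here), RSEM 1.3.1 and DESeq2 1.26.0, and the build GRCm38 (mm10), without an annotation. The authors deposited RSEM's expected counts, which are not normalized. The authors also deposited TPM and FPKM, which they scaled for length and library total.

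Rounded expected counts of all 6 libraries entered 1 edgeR 4.0.16 quasi-likelihood fit (R 4.3.3) with a mean per group, 3 residual and 29.5 prior degrees of freedom, and TMM factors from 0.952 to 1.04. filterByExpr kept genes (minimum count 10, minimum total 15). Adjusted p-values cover all 12224 genes kept. Standard errors were obtained from the F statistic. A permutation of 2 against 2 libraries gives a two-sided p of 0.333 at best. The fit was run on counts simulated from the same kind of model, with the same spread for every gene. The changes put in were larger than most acetate differences reported here. That run checks the code and cannot show how the test behaves on these libraries. Between libraries of a group the chi-square of counts was 1.93 to 2.6 per gene, so none was treated as a duplicate. GENCODE M21 gave coordinates, transcript names and exon overlaps, which exist for 15 of the 40 genes, and matched all 40 symbols. Counts lay within 0.005 of a whole number in every library for 39 of them.

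All 40 genes could be named, and of the further 42 the 3 highest and 3 lowest called genes per comparison, besides Mitf, Tfeb and Tfe3. A gene that this rule names and a marker gene are not reported here. The genes, lists and tests were chosen with earlier results of these data known. As alternatives, the fit was repeated with DESeq2 1.42.0, with limma-voom (limma 3.58.1), with 2 other scalings (RLE, upper quartile), with no filter or with 5 CPM in 2 libraries, with the compared groups alone, with a replicate block, without each library, and with limma on log2(TPM + 0.1), log2(TPM + 1) and log2(FPKM + 0.1).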

Additional observations from a re-analysis of the deposited data

How the results depend on the processing

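Across the alternatives run, 3 to 4 of the 40 genes were raised and 32 to 34 lowered with RANKL. With acetate against day 0, 3 were raised and 31 to 34 lowered. The RANKL median of -0.98 moved to -0.83 with log2(FPKM + 0.1), where the median of all genes also moved from 0.01 to 0.127. For acetate against RANKL, the 21 raised genes became 11 with log2(TPM + 1) and 10 with log2(TPM + 0.1) or log2(FPKM + 0.1), and the 6 lowered became 3 with either TPM pseudocount. Leaving out 1 library at a time gave 3 to 6 lowered genes. Over all genes, the 3717 calls became 2453 with DESeq2, 1843 with log2(TPM + 0.1), 1908 with log2(TPM + 1) and 1894 with log2(FPKM + 0.1). Among calls of the main fit, directions reversed only for Cln3 with RANKL on the FPKM scale (0.05) and Creg1 with acetate. Creg1 changed sign on the TPM (-0.08 with either pseudocount) and FPKM (-0.10) scales. None of these reversed values was called, and the cause was not tested. Estimates of some genes not called in the main fit also changed sign, such as Aga with acetate against RANKL (-0.11 to 0.32). Deviations of same-numbered libraries had correlations of -0.0384, -0.0213 and -0.01. These values show no pairing by number but cannot exclude it. The replicate block left 21 raised and 6 lowered genes for acetate, and 4 raised and 34 lowered for RANKL.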
